A study of Mus musculus with 4 samples.

Results

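The urea cycle and nitrogen disposal genes examined here are 9 mouse liver genes, Cps1, Otc, Ass1, Asl, Arg1, Nags, Glul, Gls2 and Glud1, out of 22367 protein-coding genes of the GENCODE M1 annotation (mm9). They were picked for their known role in ammonia handling, with results of these libraries already known. An SHP peak was assigned to a gene when its interval lay within 5 kb of the gene body. SHP (NR0B2) is an orphan nuclear receptor that has no DNA-binding domain of its own, so ChIP-seq finds it where partner proteins hold it on chromatin. The study asked where hepatic SHP sits in wildtype male C57BL/6 mice aged 8 to 12 weeks, fasted for 12 h and killed 2 h after a tail vein injection of vehicle or of FGF19 at 1 mg/kg. FGF19 is the human form of a gut hormone released after meals. Immunoprecipitated and input DNA from 3 mice was pooled per group, giving 1 SHP ChIP library and 1 input library for vehicle and the same for FGF19. No replicate error can therefore be given, and every difference between the groups below is a difference between 2 libraries. The authors' lists hold 1508 peaks from 15473647 ChIP tags with vehicle and 3155 peaks from 13444078 ChIP tags with FGF19. Of these, 4 vehicle peaks and 6 FGF19 peaks belonged to the 9 genes.

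Ammonia from amino acid breakdown is toxic, and the liver disposes of it along 2 routes. Hepatocytes near the portal vein run the urea cycle, which starts in mitochondria with CPS1 and OTC and continues in the cytosol with ASS1, ASL and ARG1. NAGS makes N-acetylglutamate, the obligate activator of CPS1. GLS2, the liver glutaminase, and GLUD1, glutamate dehydrogenase, release ammonia inside mitochondria, and GLUL, glutamine synthetase, captures what is left in the hepatocytes around the central vein. The samples are whole liver, so SHP on a gene in few cells and weak SHP binding in all cells cannot be told apart.

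SHP peaks were found at 5 of the 9 genes, all 5 in the FGF19 list and 4 also in the vehicle list. Of all protein-coding genes, 16.3% had a peak with FGF19 and 7.93% with vehicle. At each of the 5 genes a summit lay in the 3′ UTR, between 4 and 909 bp past the stop codon. Whether a peak over a 3′ UTR reflects SHP held on the chromatin there was not tested. The sequences show where the peaks enter the end of each coding region. They are the coding bases of the last exon that lie under the peak of at least 1 group, read from the mm9 genome on the gene's own strand, with the stop codon in capitals. They come from chr1:67276822-67276920 (Cps1, plus strand), chr2:31375892-31375937 (Ass1, plus strand), chr10:24635416-24635585 (Arg1, minus strand) and chr10:127646458-127646500 (Gls2, plus strand).
Cps1: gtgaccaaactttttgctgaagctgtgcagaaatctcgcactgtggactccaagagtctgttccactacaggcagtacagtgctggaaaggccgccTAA
Ass1: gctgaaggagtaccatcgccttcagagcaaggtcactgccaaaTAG
Arg1: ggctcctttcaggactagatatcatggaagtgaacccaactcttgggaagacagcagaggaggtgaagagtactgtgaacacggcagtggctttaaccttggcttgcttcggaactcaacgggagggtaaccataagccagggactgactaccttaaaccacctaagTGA
Gls2: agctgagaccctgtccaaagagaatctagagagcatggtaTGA

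Glud1 also had a peak at its 5′ end, in the FGF19 list. Its summit base, in capitals, and 100 bases on each side are shown from chr14:35124125-35124325 on the plus strand, which lies wholly inside the coding part of exon 1 and is 74.1% G and C.
Glud1: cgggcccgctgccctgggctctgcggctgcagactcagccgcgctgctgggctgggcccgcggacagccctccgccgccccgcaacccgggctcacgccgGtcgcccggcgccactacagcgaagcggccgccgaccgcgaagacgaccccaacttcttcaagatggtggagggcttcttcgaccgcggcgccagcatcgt

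Of the urea cycle enzymes proper, Cps1, Ass1 and Arg1 carried a peak in both groups, and Otc and Asl in neither. Of the other enzymes, Glud1 carried a peak in both groups, Gls2 in the FGF19 list only, and Nags and Glul in neither. In counts, 4 of the 9 genes had a peak with vehicle, where 7.93% of all protein-coding genes did, and 5 of 9 with FGF19, where 16.3% did. A peak in both lists was present at 4 of 9 genes, against 4.31% of all genes. The FGF19 list alone marked 1 of 9 (12% of all genes) and the vehicle list alone 0 of 9 (3.62%). The share of members was thus above the share of all genes in each list. The 9 genes were put together with results of these libraries known, so their counts carry no test.

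**Figure D1:**
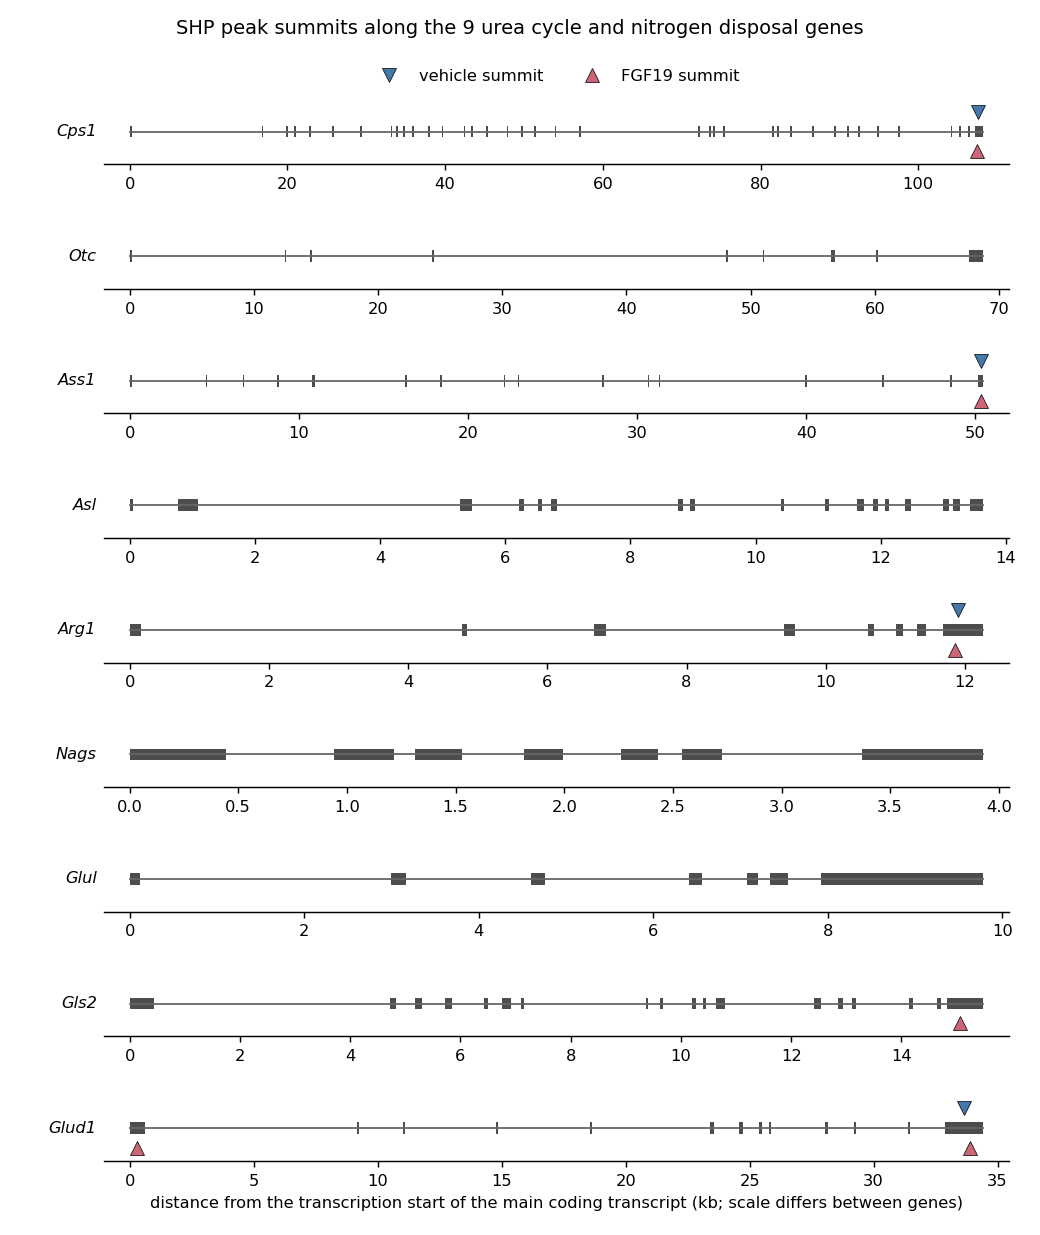
Gene maps of the 9 members, drawn from the transcription start of the main coding transcript (kb, a separate scale for each gene), with exons as boxes and SHP summits as triangles (vehicle above the line, FGF19 below). Of the 10 summits, 9 stand in the last exon, and the FGF19 summit at the 5′ end of Glud1 is the exception.

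Cps1, the entry enzyme of the cycle and the longest of these genes at 108 kb, had its peak at its far end. The vehicle peak ran over chr1:67276856-67277743 and the FGF19 peak over chr1:67276770-67277708. Both summits lay in exon 38 of 38, 107564 bp and 107492 bp from the transcription start, and 244 bp and 172 bp past the stop codon. At 888 bp and 939 bp these peaks were long, against medians of 332.5 bp and 374 bp in their lists, and they covered 87.7% and 87.6% of the last exon.

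Ass1, which joins citrulline to aspartate, showed the same arrangement on a smaller scale. Its peaks, chr2:31375899-31376187 with vehicle and chr2:31375824-31376096 with FGF19, had their summits in exon 16 of 16, 101 bp and 112 bp past the stop codon and 11 bp from each other. The last exon of Ass1 is 301 bp long, and the peaks covered 96.0% and 68.1% of it. Another annotated start of Ass1 lies 2028 bp from the vehicle summit.

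Arg1 encodes the arginase that releases urea. Its peaks lay at chr10:24635176-24635700 with vehicle and chr10:24635186-24635541 with FGF19, with summits in exon 8 of 8, 45 bp and 4 bp past the stop codon. The FGF19 summit is thus almost on the stop codon itself, and the centre of the vehicle peak falls in coding sequence.

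Glud1 had summits in its last exon, exon 13 of 13, farther from the stop codon than in the other genes. The vehicle summit of chr14:35157426-35157976 was 656 bp past it and the FGF19 summit of chr14:35157450-35157876 was 909 bp past it. The summits were 253 bp apart, more than at any other member (11 to 72 bp), while the median gap over the 678 regions common to both lists was 58.5 bp. The additional FGF19 peak of Glud1, chr14:35124100-35124429, had its summit in exon 1, 312 bp downstream of the transcription start.

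Gls2 had its peak, chr10:127646458-127646751, in the FGF19 list, with the summit in exon 18 of 18 and 75 bp past the stop codon. The nearest transcription start was that of the neighbouring gene Spryd4, 2275 bp away.

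**Figure D2:**
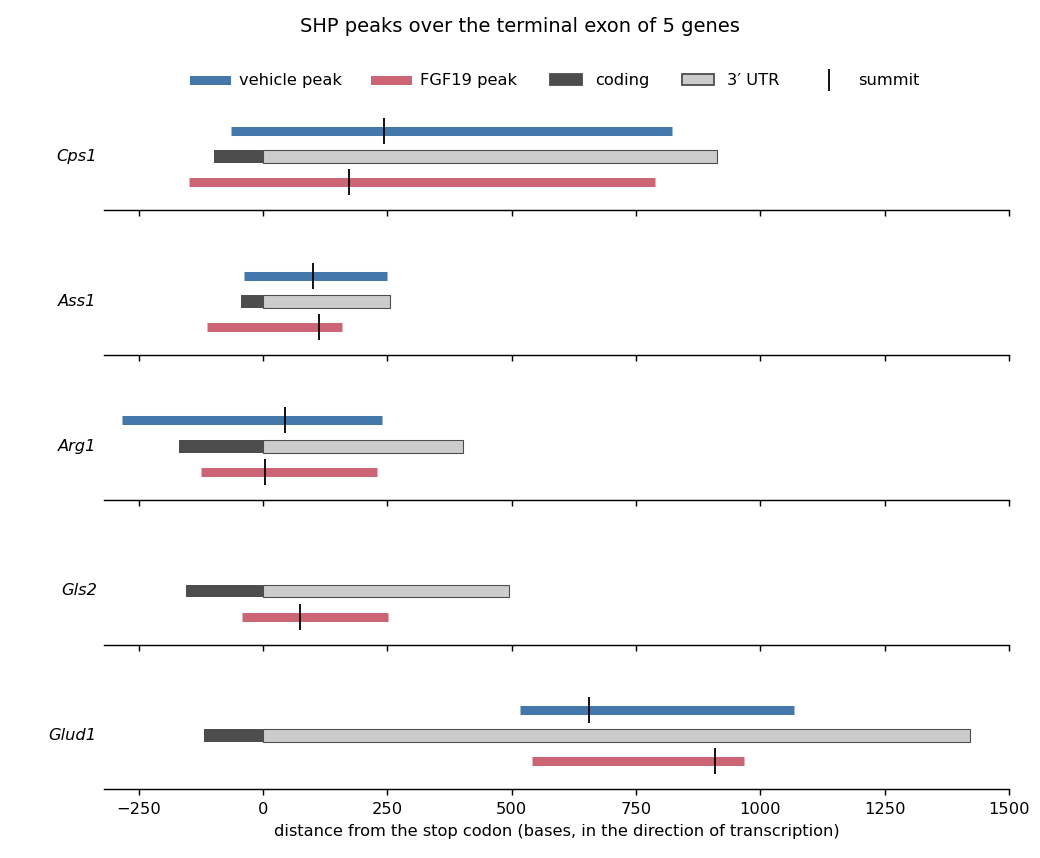
SHP peaks over the last exon of the 5 genes, placed by distance from the stop codon in bases in the direction of transcription. Dark boxes are coding sequence, light boxes the 3′ UTR, bars the peak intervals of each group and ticks the summits, all 9 of which lie at positive distances, from 4 to 909 bases.

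A summit in the 3′ UTR is uncommon in these libraries. After summits within 1 kb of any transcription start were set aside, 115 of 22367 protein-coding genes had one in their 3′ UTR with vehicle (0.514%), 113 with FGF19 (0.505%) and 75 in both lists (0.335%). Of the members, 4 of 9 had one with vehicle, 5 of 9 with FGF19 and 4 of 9 in both. Near transcription starts the members' counts were close to the share of all genes. With vehicle 0 of 9 had a summit within 1 kb of their own transcription starts, against 5.53% of all genes, and with FGF19 1 of 9 (Glud1) did, against 12.5%. The 3′ UTR was singled out as a category after the positions of the members' peaks had been seen.

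The lists as a whole are promoter lists. Within 1 kb of a transcription start lay 72.7% of the vehicle summits (Wilson 95% interval 70.4 to 74.9) and 81.8% of the FGF19 summits (80.4 to 83.1), while 3′ UTRs held 122 vehicle summits, 8.09% (6.82 to 9.58), and 118 FGF19 summits, 3.74% (3.13 to 4.46). These intervals cover counting error only. Peaks in 3′ UTRs were also shared between the groups more often than promoter peaks. An FGF19 peak overlapped 68.0% of the vehicle peaks in 3′ UTRs (59.3 to 75.6) and 42.8% of those near transcription starts (39.9 to 45.8). In the other direction the shares were 67.8% (58.9 to 75.6) and 18.4% (16.9 to 19.9). Frequent sharing was not particular to 3′ UTRs. Of the peaks in other exons, 66.2% were shared with vehicle (58.1 to 73.5) and 60.9% with FGF19 (53.1 to 68.2). With vehicle and FGF19, median fold enrichments were 5.07 and 4.92 in 3′ UTRs and 5.67 and 5.23 in other exons. Near transcription starts they were 3.97 and 3.97. Median lengths were 435 and 441 bp in 3′ UTRs, 349.5 and 404.5 bp in other exons and 330 and 376 bp near starts. Whether sharing follows from enrichment or length was not tested. The members had 4 of 4 vehicle peaks and 4 of 5 FGF19 peaks in 3′ UTRs shared.

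**Figure D3:**
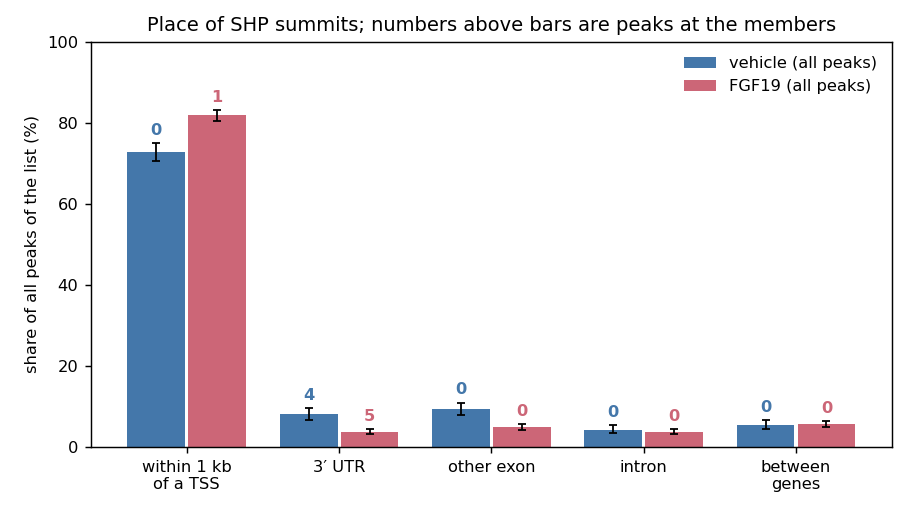
Share of all peaks of each list (%, bars from 0, with Wilson 95% intervals) by the place of the summit, and, printed above each bar, the number of peaks at the members. The members' 4 vehicle peaks and 5 of their 6 FGF19 peaks fall in the 3′ UTR category, which holds 8.09% and 3.74% of the lists.

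The remaining 4 genes had no peak within 5 kb in either list. Asl, which splits argininosuccinate, came closest, with an FGF19 peak 8.18 kb from the gene and near the transcription start of Gusb, and its nearest vehicle peak was 69.2 kb away. For Nags the nearest peaks were 147 kb away with vehicle and 135 kb with FGF19, and for Glul 279 kb and 412 kb. Otc, which makes citrulline, stood in a stretch of the X chromosome without peaks, the nearest being 10.24 Mb away with vehicle and 2.11 Mb with FGF19. For Gls2 with vehicle the gap was 44.8 kb. A gene without a listed peak had no signal past the q-value cutoff of 0.05 in that library, and signal below the cutoff was not analysed here.

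The lists give the pileup of extended ChIP tags at each summit and its fold enrichment over the local input background. The background itself follows from these as (pileup + 1) / fold enrichment - 1. The genome-wide expectation of the pileup was 1.99 tags with vehicle and 1.87 with FGF19. The Cps1 pileup was 33 tags with vehicle (exact Poisson 95% interval 22.7 to 46.3) and 38 with FGF19 (26.9 to 52.2), over backgrounds of 5.48 and 4.14 tags. The enrichment over background came to 5.24-fold with vehicle against 7.59-fold with FGF19. Cps1 had the tallest peak among the members in both groups, and its FGF19 peak stood at the 97.7th percentile of that list by fold enrichment and the 94.4th by pileup. Its vehicle peak stood at the 78.7th and the 80.4th. Among peaks in 3′ UTRs it ranked 17 of 118 by pileup with FGF19 and 34 of 122 with vehicle. By fold enrichment it ranked 21 of 118 with FGF19 and 56 of 122 with vehicle.

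At Ass1 the pileup was 20 tags in both groups (12.2 to 30.9), and the vehicle peak was enriched 4.08-fold, the FGF19 peak 6.65-fold. The backgrounds differed, 4.15 tags with vehicle and 2.16 with FGF19. The vehicle background of Ass1 was 2.09 times the genome-wide expectation and the FGF19 background 1.16 times. The gap in fold enrichment at Ass1 therefore came with ChIP pileups equal before scaling to library size and an input background that was lower with FGF19.

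Arg1 went the other way. Its pileup was 25 tags with vehicle (16.2 to 36.9) and 21 with FGF19 (13 to 32.1), its background 2.30 and 3.83 tags, and its fold enrichment 7.87 and 4.55. The vehicle background of Arg1 was 1.16 times the genome-wide expectation and the FGF19 background 2.05 times.

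At the 3′ end of Glud1 the pileups were 21 tags with vehicle (13 to 32.1) and 22 with FGF19 (13.8 to 33.3). Its backgrounds were 3.83 and 6.19 tags and its fold enrichments 4.56 and 3.20. In exon 1 of Glud1 the FGF19 pileup was 21 tags, the background 4.30 and the fold enrichment 4.15. The Gls2 peak had 18 tags (10.7 to 28.4), a background of 2.74 and a fold enrichment of 5.07. Set against the list medians of 24 tags in both groups, 7 of the 10 pileups at the members lay between 18 and 22 tags.

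**Figure D4:**
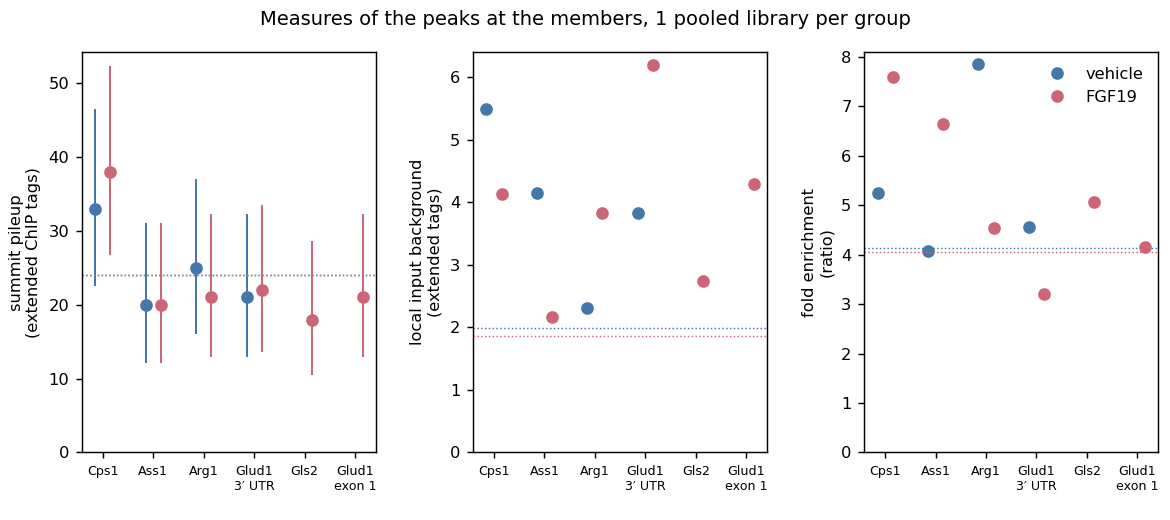
Summit pileup (extended ChIP tags, with exact Poisson 95% intervals), local input background (extended tags) and fold enrichment (ratio) of the members' peaks, 1 point per library. Dotted lines are the list medians for pileup and fold enrichment and the genome-wide expectation for the background. Pileup intervals of vehicle and FGF19 overlap at each of the 4 shared regions. The fold enrichments are drawn without intervals, though they carry the counting error of both pileup and background. They were higher with FGF19 at Cps1 and Ass1 and lower at Arg1 and Glud1.

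At the 4 regions shared by both groups, the log2 ratio of FGF19 to vehicle in fold enrichment was 0.53 at Cps1, 0.70 at Ass1, -0.79 at Arg1 and -0.51 at Glud1, so 2 were higher and 2 lower with FGF19. Past a ratio of 1.5 were Ass1 (1.63 times higher) and Arg1 (1.73 times lower with FGF19). Among all 678 shared regions 9.44% were at least 1.5 times higher and 13.9% at least 1.5 times lower. By summit pileup scaled to the ChIP tags used in each library, the log2 ratios were 0.41 at Cps1 (exact binomial 95% interval -0.31 to 1.12), 0.20 at Ass1 (-0.77 to 1.17), -0.05 at Arg1 (-0.96 to 0.85) and 0.27 at Glud1 (-0.66 to 1.20). Each interval includes 0, and it covers counting error only. None of the 4 regions passed a ratio of 1.5 by pileup, and 14.5% of all shared regions did. Glud1 changed its sign between the measures. The median over the 4 regions was 0.01 by fold enrichment and 0.24 by pileup, beside -0.02 and 0.20 over all shared regions.

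The log2 ratio of fold enrichment can be split exactly into a part from the pileups and a part from the backgrounds, both with 1 tag added. At Ass1 the pileup part was 0 and the background part 0.70. At Arg1 the parts were -0.24 and -0.55, at Glud1 0.06 and -0.57, and at Cps1 0.20 and 0.34. At Ass1, Arg1 and Glud1 the background part was the larger, and it stays so with the pileups scaled to library size. At Cps1 this depends on the scaling, since the scaled pileup ratio of 0.41 makes up most of the 0.53.

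**Figure D5:**
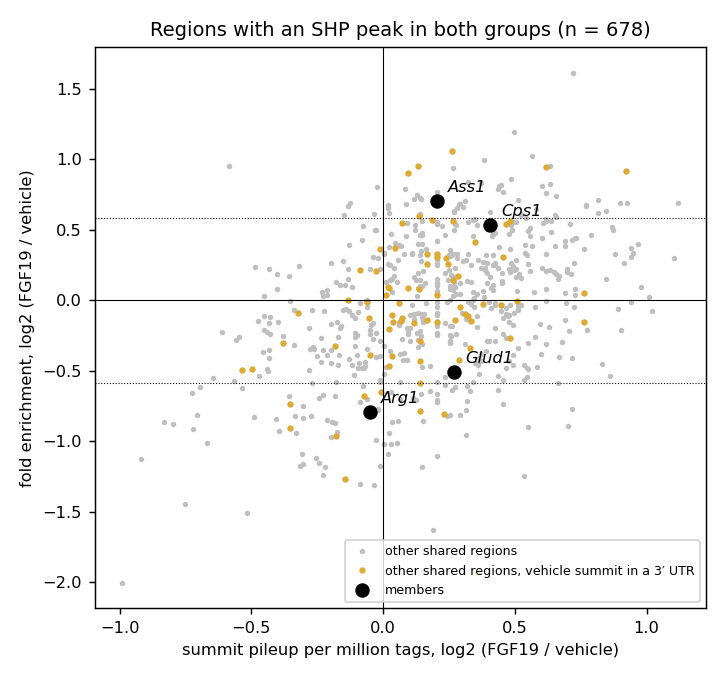
All 678 regions with an SHP peak in both groups, by the log2 ratio of FGF19 to vehicle in summit pileup scaled to library size (horizontal axis) and in fold enrichment (vertical axis). Dotted lines mark a ratio of 1.5. The members (black) span -0.79 to 0.70 on the vertical axis and only -0.05 to 0.41 on the horizontal axis, inside the cloud of other regions.

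A wider list of 32 genes was read the same way. It held mainly carriers of ornithine, aspartate, glutamine and cationic amino acids, and enzymes that make or use glutamate, ornithine or histidine nitrogen. Other genes in it included Sirt5, Car5a, Rhbg, Sds and Sdsl. Of the 32 genes, 4 had a peak within 5 kb with vehicle (7.93% of all genes did) and 7 with FGF19 (16.3%). In both lists were 3 (4.31%), in the FGF19 list only 4 (12%) and in the vehicle list only 1 (3.62%). The other 24 had none. Slc25a15, the mitochondrial ornithine carrier that serves the cycle, had a promoter peak in both groups, with a summit 2 bp from the transcription start and a fold enrichment of 2.96 with vehicle, and 222 bp and 4.27 with FGF19. Its pileups were 19 and 20 tags over backgrounds of 5.76 and 3.92. Oat, ornithine aminotransferase, and Got2, the mitochondrial aspartate aminotransferase, had promoter peaks in the FGF19 list only, with fold enrichments of 3.20 and 4.77. Odc1, which draws ornithine into polyamines, had a peak in each list, but the 2 did not overlap. Its vehicle summit was 314 bp upstream of the transcription start with 19 tags and its FGF19 summit 52 bp downstream with 37 tags.

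Of the amino acid transporters in this list, 3 had summits in the 3′ UTR. Slc38a3, the glutamine transporter SNAT3, had summits in exon 16 of 16 in both groups, 450 bp and 325 bp past the stop codon, with 34 and 35 tags and fold enrichments of 4.70 and 5.61. It had a further FGF19 peak 1420 bp upstream of its start. Slc38a4 had 2 FGF19 peaks in its last exon, 23 bp and 1425 bp past the stop codon, with fold enrichments of 5.75 and 3.72. At Slc7a2, a carrier of arginine and ornithine, the vehicle list had a peak of 15 tags in the 3′ UTR of its longer annotated transcripts and a fold enrichment of 4.25. The peak assigned to the desuccinylase gene Sirt5 lay 101 bp from the transcription start of its neighbour Nol7. In all, 2 of 32 genes had a summit in the 3′ UTR with vehicle (0.514% of all genes) and 2 of 32 with FGF19 (0.505%).

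Of 10 genes for factors and a receptor known to control urea cycle genes, 5 had a peak with vehicle (7.93% of all genes did) and 5 with FGF19 (16.3%), 4 of them in both (4.31%). Within 1 kb of a transcription start lay 5 of their 7 vehicle summits and 7 of their 9 FGF19 summits, beside 72.7% and 81.8% of all summits. Cebpa, a factor needed for the expression of urea cycle enzymes, had 19 tags and a fold enrichment of 3.43 with vehicle and 26 tags and 5.70 with FGF19, 318 bp and 146 bp downstream of the start. A further FGF19 peak of Cebpa had a fold enrichment of 3.01. Cebpb had 2 FGF19 peaks, with 27 and 21 tags, and none with vehicle. Nr3c1, the glucocorticoid receptor gene, had 2 peaks in each group, with fold enrichments of 3.86 and 6.29 with vehicle and 4.29 and 4.22 with FGF19. Ppara had a promoter peak of 2.91 with vehicle and 4.06 with FGF19, and a further FGF19 peak of 4.08. Creb1 had a peak with vehicle only, with a fold enrichment of 3.12. Hnf4a stood apart in having its shared region in the 3′ UTR, with 18 tags in both groups and fold enrichments of 3.93 and 3.53, beside a vehicle peak of 5.35 in an intron. Foxo1, Onecut1 and the glucagon receptor gene Gcgr had none within 5 kb.

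The 201 bases around each summit were searched on both strands for exact matches to 4 sequences, none of which contains another. AGGTCA, the hexamer that nuclear receptors bind, occurred in 0 of the members' 4 vehicle windows and 0 of their 6 FGF19 windows, beside 9.08% and 7.13% of the windows of all peaks 9.84% and 12.7% of the peaks in 3′ UTRs and 8.90% of windows around the starts of all protein-coding genes. The YY1/SREBP-2 core AANATGGC also occurred in none of the 10, beside 9.75% and 7.54% of all peaks, 2.46% and 5.08% of the peaks in 3′ UTRs and 5.72% of promoter windows. At such rates, no match in 10 windows says only that these letters are not in them. Nor are they 10 separate sites. At Cps1, Ass1 and Arg1 the summits of the 2 groups were 72, 11 and 41 bp apart, so their windows overlap. Whole peaks were not searched, and the coding end of Ass1 printed above, which lies under both Ass1 peaks but outside the windows, does hold aggtca. The SP1 sequence CCCCGCCCC was present at Ass1 in both groups, as 1 match that lies in both windows. It occurred in 13.1% and 14.8% of all peaks, 11.9% of promoter windows and 0.820% and 0.847% of the peaks in 3′ UTRs. In each list that last share is the Ass1 peak alone, so it gives no separate comparison. The NF-Y sequence ATTGGC was present in the vehicle window of Glud1, and in 11.2% and 11.1% of all peaks, 12.0% of promoter windows and 4.92% and 5.08% of the peaks in 3′ UTRs. The matches of Ass1 (chr2:31376051-31376079, 27 bp from the vehicle summit) and Glud1 (chr14:35157544-35157569, 8 bp from it) are shown on the plus strand, with the match in capitals and 10 bases on each side.
Ass1: ctgtgtccccCCCCGCCCCcccacagcct
Glud1: cttgtagcttATTGGCcctgcatcat

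The windows of the members' 9 summits in 3′ UTRs held 35.3% to 58.2% G and C, around the medians of 49.5% and 49.8% for all such peaks and below the medians of 66.2% and 69.7% for peaks near transcription starts. Cps1 had the lowest values, 35.3% and 36.8%, and Ass1 the highest, 56.7% and 58.2%.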

How the data were processed

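SHP ChIP-seq peak lists of mouse liver, 1 per group, were analysed, and the 2 input libraries enter through the authors' peak calls only. Per the submitters' processing notes, the study's methods and the file headers, the authors aligned reads to mm9 with Bowtie 1.0.0, allowing up to 2 mismatches, and called peaks against each group's own input with MACS2 2.0.10.20130501 (q-value cutoff 0.05, effective genome size 1870000000, at most 1 tag per position and strand, larger library scaled to the smaller). How reads with several matches were treated is not given in the sources used here. The deposited signal is the summit pileup of tags extended to 240 bp (vehicle) or 260 bp (FGF19), unscaled because the input was larger in both groups. The deposited fold enrichment is a ratio to the local input background, and -log10 p-values and -log10 q-values are as deposited.

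Gene bodies, exons and coding ends were taken from GENCODE M1, with the coding transcript of longest coding sequence for each gene, and all 9 members were named. Members and lists were chosen with earlier results of these data known. Peaks sharing at least 1 bp were common. With 1 library per group no test was run. The functions were tested on simulated data and passed 18 of 18 checks. Of the wider lists, each gene with a peak within 5 kb was named, and 1 regulator is not reported here by name. The 3′ UTR as a place of summits was examined after seeing the data. All steps ran in Python 3.11.15 with matplotlib 3.10.9, scipy 1.17.1, pandas 2.3.3 and numpy 2.4.6.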

Additional observations from a re-analysis of the deposited data

How the results depend on the processing

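Of 114 recomputed values 99 stayed within 1.5 times the reported count or within the counting interval, and 15 moved. The counting intervals of the log2 ratios are wide. By pileup scaled to library size in place of fold enrichment, Glud1 went from -0.51 to 0.27, a change of sign, and Arg1 from -0.79 to -0.05, and both are among the 99. The counts of members with a peak (4 with vehicle, 5 with FGF19) held with peaks required to overlap the gene body and with q-value cutoffs of 0.01 and 0.001. In the same order, 5.67%, 7.56% and 6.44% of all protein-coding genes had a peak with vehicle, and 12.5%, 15.8% and 14.1% with FGF19. Within 10 kb the members marked in the FGF19 list only became 2, with Asl added (13.5% of all protein-coding genes). The nitrogen genes marked in both lists became 5 (5.31%). Within 50 kb the nitrogen genes numbered 9 with vehicle, 16 with FGF19, 6 in both, 10 in the FGF19 list only and 3 in the vehicle list only, beside 18.7%, 33.1%, 13.3%, 19.7% and 5.38% of all protein-coding genes. At a cutoff of 0.001 the regulators numbered 3 with vehicle (6.44% of all protein-coding genes), 2 in both (3.36%) and 3 with FGF19 only (10.7%). With the FGF19 list shortened to 1508 peaks, the genes in the vehicle list only became 1 member, 2 nitrogen genes and 2 regulators. Of all protein-coding genes 5.22% were in the vehicle list only at that setting. Over all annotated genes, 5.49% had a peak with vehicle and 11.4% with FGF19. With summits at most 100 bp apart, 3 of the 4 shared regions remained shared. Over all peaks that rule gave 465 shared regions, beside 678 by an overlap of 1 bp. Placing peak centres in place of summits, an alternative chosen after seeing the data, left 3 members with a vehicle peak in a 3′ UTR. By pileup over the genome-wide expectation, also chosen afterwards, the log2 ratios were 0.29 at Cps1, 0.09 at Ass1, -0.16 at Arg1 and 0.15 at Glud1. That expectation grows with the tag extension, 240 bp with vehicle and 260 bp with FGF19. It therefore lowered each ratio by the same amount from its value by pileup scaled to library size. The cause of the other shifts was not tested. No paired analysis was possible because each group is 1 pooled library.

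Pileups of 18 to 38 tags limit what can be seen. The exact binomial interval of the Ass1 pileup ratio ran from -0.77 to 1.17 on the log2 scale, so a difference of the size seen in fold enrichment would not be detectable from the ChIP tags at this depth.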
